A study of Rattus norvegicus with 36 samples.

Results

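Genes of endoplasmic reticulum (ER) folding and of the early secretory pathway were followed in rat liver after short oral exposure to PBDE47, a brominated flame retardant. The gene list held 42 members, and 41 of them were measured, each by 1 of the 31042 probe sets tested. Where a gene had several probe sets of its own, the one with the highest mean over the 36 arrays stood for it. The COPII coat gene Sec23a, which had no probe set assigned to it alone in the platform annotation, was not analysed here. The members fell by role into 17 ER chaperones and folding enzymes, 3 genes of ER-associated degradation (ERAD) and the unfolded protein response (UPR), 9 translocon genes, 4 measured COPII coat genes, and 8 genes of the COPI coat and of traffic GTPases.

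The animals were male Harlan Sprague Dawley rats, 7 weeks old at the start, gavaged on 5 consecutive days with corn oil alone (vehicle) or with PBDE47 in corn oil at 0.0485 mg/kg, 0.485 mg/kg, 4.85 mg/kg, 48.5 mg/kg or 485 mg/kg. Liver RNA of 36 animals, 6 in each of the 6 groups, was hybridised to 36 Affymetrix arrays, 1 array per animal. The study asked which liver transcripts differ from vehicle at each dose. The labels name no genetic change in these animals, and every group received the same oil.

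A hepatocyte makes most plasma proteins, and each of these enters the ER through the Sec61 channel, the translocon. Chaperones and disulfide isomerases then fold it, ERAD removes what fails to fold, and COPII-coated vesicles carry cargo from the ER towards the Golgi while COPI-coated vesicles return escaped ER residents. When unfolded protein accumulates, the UPR, acting through the transcription factors ATF6, XBP1 and ATF4, raises chaperone genes, and its classic targets carry an ER stress element in the promoter.

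The promoters were searched for that element. The gene list was made without promoter sequences, but it holds known UPR targets, in which the element is known, so its frequency among the members is a description and no independent result. RefSeq promoter windows of the GRCr8 assembly, 300 bases each and read in the direction of the gene, were listed for 37 of the 42 members. The ER stress element (ERSE, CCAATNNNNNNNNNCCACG, where N is any base, on either strand) was found in 8 members and in 22 of all 33469 windows (0.0657%). Its second form (ERSE-II, ATTGG and CCACG with any single base between them, so that it shares CCACG with ERSE) was found in 3 other members and in 17 of all windows (0.0508%). Of the 14 chaperone and folding genes with a window, 9 held either form, as did 2 of the 3 ERAD and UPR genes, and the count was 0 among 8 translocon, 4 COPII (the unmeasured Sec23a included) and 8 COPI and traffic genes. The members with ERSE or ERSE-II are shown with 12 bases on each side of the motif. Capitals mark the fixed letters of ERSE and, for ERSE-II, the whole motif with its free base, and a gene whose motif lies on the opposite strand shows CGTGG before ATTGG (ERSE) or CGTGG before CCAAT (ERSE-II).
Hspa5: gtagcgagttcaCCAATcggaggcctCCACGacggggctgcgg
Hsp90b1: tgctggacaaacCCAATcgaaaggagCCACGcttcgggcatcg
Hsp90b1, second copy: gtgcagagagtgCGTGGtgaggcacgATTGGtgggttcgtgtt
Calr: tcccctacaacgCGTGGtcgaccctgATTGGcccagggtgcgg
Canx: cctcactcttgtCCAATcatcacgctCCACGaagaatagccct
Dnajc3: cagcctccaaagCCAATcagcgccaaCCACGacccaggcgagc
Creld2: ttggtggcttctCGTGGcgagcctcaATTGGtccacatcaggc
Ero1b: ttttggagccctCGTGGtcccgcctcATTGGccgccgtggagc
Xbp1: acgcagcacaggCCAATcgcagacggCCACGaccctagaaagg
Dnajb11, ERSE-II: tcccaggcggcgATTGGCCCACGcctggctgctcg
Hyou1, ERSE-II: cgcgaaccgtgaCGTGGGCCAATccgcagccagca
Hyou1, ERSE-II, second copy: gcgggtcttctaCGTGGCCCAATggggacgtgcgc
Herpud1, ERSE-II: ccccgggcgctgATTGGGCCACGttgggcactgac
The Hspa5 stretch lies at chr3:38452961-38453003 on the plus strand, with the first letter of its motif at position -43 from the start site, and the Xbp1 stretch lies at chr14:84604546-84604588 on the plus strand. No window was listed for Pdia3, Pdia6, Manf, Sec61a1 or Sec24d.

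The shorter core ACGTG occurred in 23 of the 37 member windows and in 19.3% of all windows. A longer form, TGACGTG, which contains ACGTG, was found in 8 member windows and in 1.81% of all windows, and 4 of the 8 were COPI and traffic genes (Copa, Copb1, Copb2 and Arf1). The other four were Hspa5, Hyou1, where it overlaps the first ERSE-II, Ssr4 and Sec23a. The site of Copb2, at chr8:108040666-108040696 on the plus strand, is shown with its motif on the opposite strand in capitals.
Copb2: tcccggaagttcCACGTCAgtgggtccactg
The promoters of the members with the largest rise and the largest fall at 485 mg/kg are given whole, with each ACGTG in capitals. That of Copg1 lies at chr4:121923712-121924011 and that of Pdia5 at chr11:78777258-78777557, both on the plus strand, and neither held ERSE or ERSE-II.
Copg1: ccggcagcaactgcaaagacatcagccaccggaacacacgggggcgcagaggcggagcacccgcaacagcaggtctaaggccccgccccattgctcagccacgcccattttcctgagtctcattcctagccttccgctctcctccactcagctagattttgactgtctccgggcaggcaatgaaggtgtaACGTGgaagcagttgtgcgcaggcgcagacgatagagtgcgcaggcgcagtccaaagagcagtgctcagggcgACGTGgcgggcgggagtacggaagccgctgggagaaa
Pdia5: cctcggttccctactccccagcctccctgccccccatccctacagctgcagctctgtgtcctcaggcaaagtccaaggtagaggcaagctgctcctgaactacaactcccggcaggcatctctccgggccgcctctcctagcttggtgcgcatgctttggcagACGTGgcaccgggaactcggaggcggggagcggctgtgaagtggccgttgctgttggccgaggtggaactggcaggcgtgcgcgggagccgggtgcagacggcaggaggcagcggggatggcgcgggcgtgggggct
A match is only a run of letters, and binding was not measured.

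Values are given on the log2 RMA scale, and changes as log2 differences between group means with the standard error (SE) from limma, a linear model fitted over all 36 arrays, with 6 animals per group. A gene was called at a Benjamini-Hochberg adjusted p below 0.05 over all probe sets tested. Arrays of a group correlated at 0.990 to 0.997 across probe sets, and array medians ran from 5.31 to 5.38. The number of arrays limits the precision. Of 8 measured hepatocyte markers, among them Alb and Apoa1, 0 had a mean below the lowest array median. The same held for 8 Kupffer cell and macrophage and 6 endothelial markers, so this count does not check the tissue label. In vehicle livers the median summed level (log2) was 17.32 for the hepatocyte markers, against 12.44 and 11.69 for those lists. Within the vehicle group, replicate 3 stood highest in the members' median, at 0.15 above the vehicle mean, and replicate 1 lowest, at -0.09.

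At 485 mg/kg the members rose more often than they fell. Of the 41 measured members, 13 were higher than in vehicle, 2 were lower and 26 were not called. Over all probe sets, 7.81% were called higher and 7.22% lower, and among the probe sets with a mean above the median, where the members lie, 13.7% were called higher and 12.5% lower. The members were chosen with earlier results of these data known, so setting their counts beside these shares is only a description. The median change of the members was 0.14, against -0.01 for all probe sets, and 33 of the 41 lay above 0. A full separation of the 6 arrays of 485 mg/kg from the 6 vehicle arrays was seen upward in 6 members (Pdia3, Ssr1, Sec24d, Sec13, Copg1 and Gdi2), against 4.30% of all probe sets, and downward in Pdia5, against 3.03%. With replicate 3 of the vehicle left out, 17 members were called higher, and with replicate 4 of 485 mg/kg left out, 10.

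**Figure D1:**
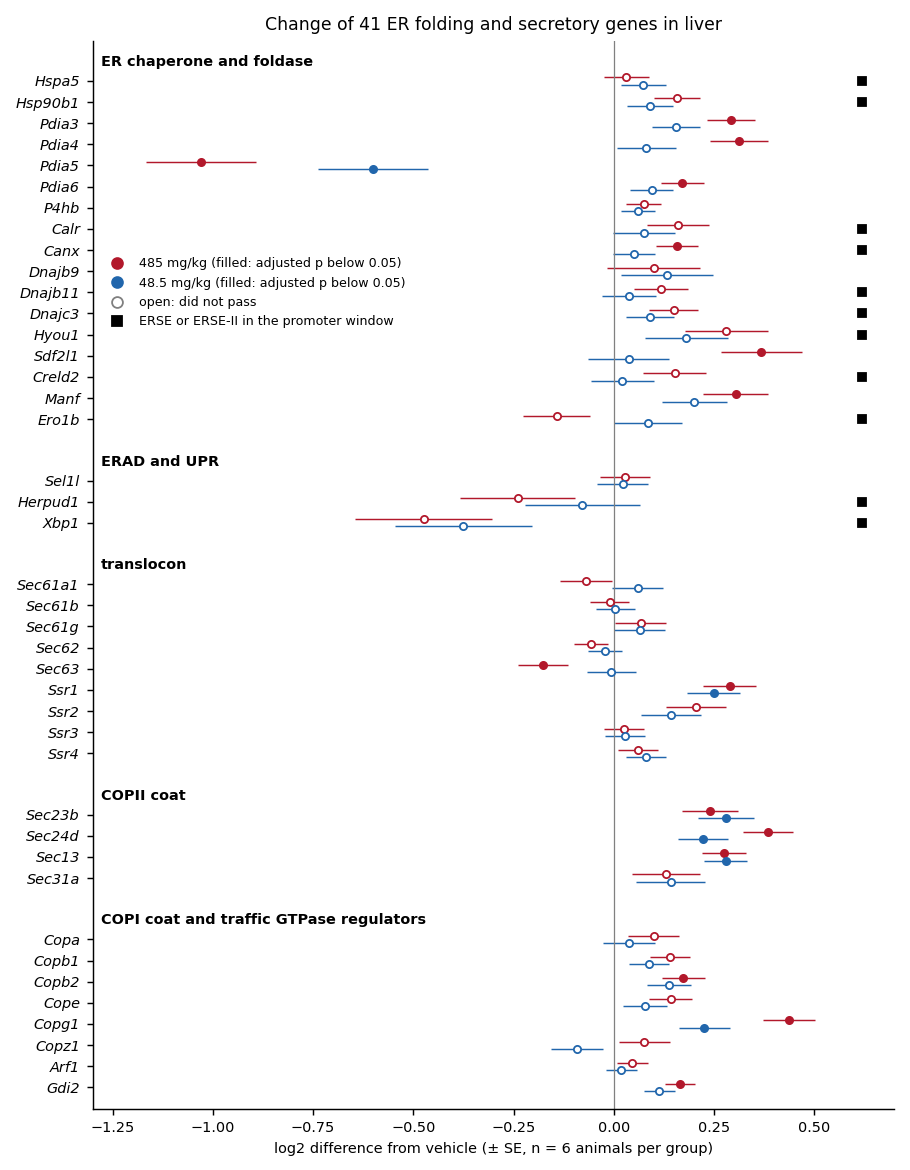
Log2 difference from vehicle of the 41 measured members (rows, by role) at 485 mg/kg (red) and 48.5 mg/kg (blue), with SE bars (n = 6 animals per group); filled points passed an adjusted p below 0.05, and black squares mark genes with ERSE or ERSE-II in the promoter window. The COPII coat genes lie to the right of 0 at both doses and Pdia5 far to the left, at -1.03 and -0.60.

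Among the 17 ER chaperones and folding enzymes, 6 were higher at 485 mg/kg (Pdia3, Pdia4, Pdia6, Canx, Sdf2l1 and Manf), 1 was lower (Pdia5) and 10 were not called. The median change was 0.16. For this and each role below, the shares of all probe sets called at 485 mg/kg were 7.81% higher and 7.22% lower.

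Pdia5, a protein disulfide isomerase (probe set 1374828_at), had the largest change of any member. Its log2 values ran from 6.34 to 7.29 with a median of 7.01 in livers given 485 mg/kg, against 7.66 to 8.32 with a median of 7.98 in vehicle livers. In livers given 48.5 mg/kg they ran from 6.91 to 7.58 with a median of 7.45, against the same vehicle values. Both dose groups lay wholly below the vehicle group. Pdia5 fell by 1.03 at 485 mg/kg (SE 0.14, 2.04-fold lower, adjusted p = 4.85e-07) and by 0.60 at 48.5 mg/kg (SE 0.14, adjusted p = 0.00785). The further difference between the highest doses, -0.43, did not pass (adjusted p = 0.0622).

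The related isomerases Pdia3, Pdia4 and Pdia6 moved the other way. Pdia3 (ERp57, probe set 1398788_at), which works with calnexin and calreticulin on glycoproteins, ran from 12.74 to 13.02 with a median of 12.83 at 485 mg/kg, against 12.47 to 12.72 with a median of 12.55 in vehicle livers. All 6 livers at 485 mg/kg exceeded all 6 vehicle livers, and the rise was 0.29 (SE 0.06, 1.23-fold, adjusted p = 0.000442). Pdia4 (ERp72, probe set 1370007_at) ran from 11.79 to 12.05 with a median of 11.91 at 485 mg/kg, against 11.45 to 11.84 with a median of 11.55 in vehicle livers, so the groups overlapped. Pdia4 rose by 0.31 (SE 0.07, adjusted p = 0.00201). Pdia6 rose by 0.17 (adjusted p = 0.0235), and P4hb, the most studied disulfide isomerase, differed by 0.07 and was not called (adjusted p = 0.287, 95% interval -0.01 to 0.16).

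Sdf2l1, which associates with the chaperone BiP and its co-chaperone ERdj3, and Manf, an ER-resident protein that binds BiP, also rose. Sdf2l1 (probe set 1373043_at) ran from 10.00 to 10.54 with a median of 10.19 at 485 mg/kg, against 9.63 to 10.15 with a median of 9.84 in vehicle livers. The rise was 0.37 (SE 0.10, adjusted p = 0.00854), and the groups overlapped. Manf (probe set 1372352_at) ran from 11.40 to 11.58 with a median of 11.54 at 485 mg/kg, against 11.06 to 11.48 with a median of 11.16 in vehicle livers. The groups overlapped at the highest vehicle liver, and the rise was 0.30 (SE 0.08, adjusted p = 0.00705).

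The central chaperones of the UPR were not called. Hspa5, which encodes BiP, the Hsp70 of the ER (probe set 1370283_at), ran from 12.67 to 12.82 with a median of 12.69 at 485 mg/kg, against 12.54 to 12.86 with a median of 12.66 in vehicle livers. The range at 485 mg/kg lay inside the vehicle range. Its difference was 0.03 (adjusted p = 0.799), with a 95% interval from -0.08 to 0.15. Hsp90b1, the Hsp90 of the ER, differed by 0.16 (adjusted p = 0.0562, interval 0.04 to 0.28), and Hyou1, an Hsp70-like exchange factor of BiP, by 0.28 (adjusted p = 0.0611, interval 0.07 to 0.49). Neither passed the test, but both lay near the threshold: Hsp90b1 passed under 8 and Hyou1 under 5 of 22 other settings, among them without vehicle replicate 3 for both.

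Of the lectin chaperones of the glycoprotein cycle, the membrane-bound Canx rose by 0.16 (adjusted p = 0.0355), while its soluble partner Calr differed by 0.16 and was not called (adjusted p = 0.183, interval 0.00 to 0.32). Canx has 2 further probe sets, and neither was called (0.00 and 0.11). The BiP co-chaperones Dnajb9, Dnajb11 and Dnajc3 differed by 0.10, 0.12 and 0.15 and were not called, nor was Creld2, an ER protein known as a UPR target (0.15), or Ero1b, an oxidase that recharges the disulfide isomerases (-0.14).

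**Figure D2:**
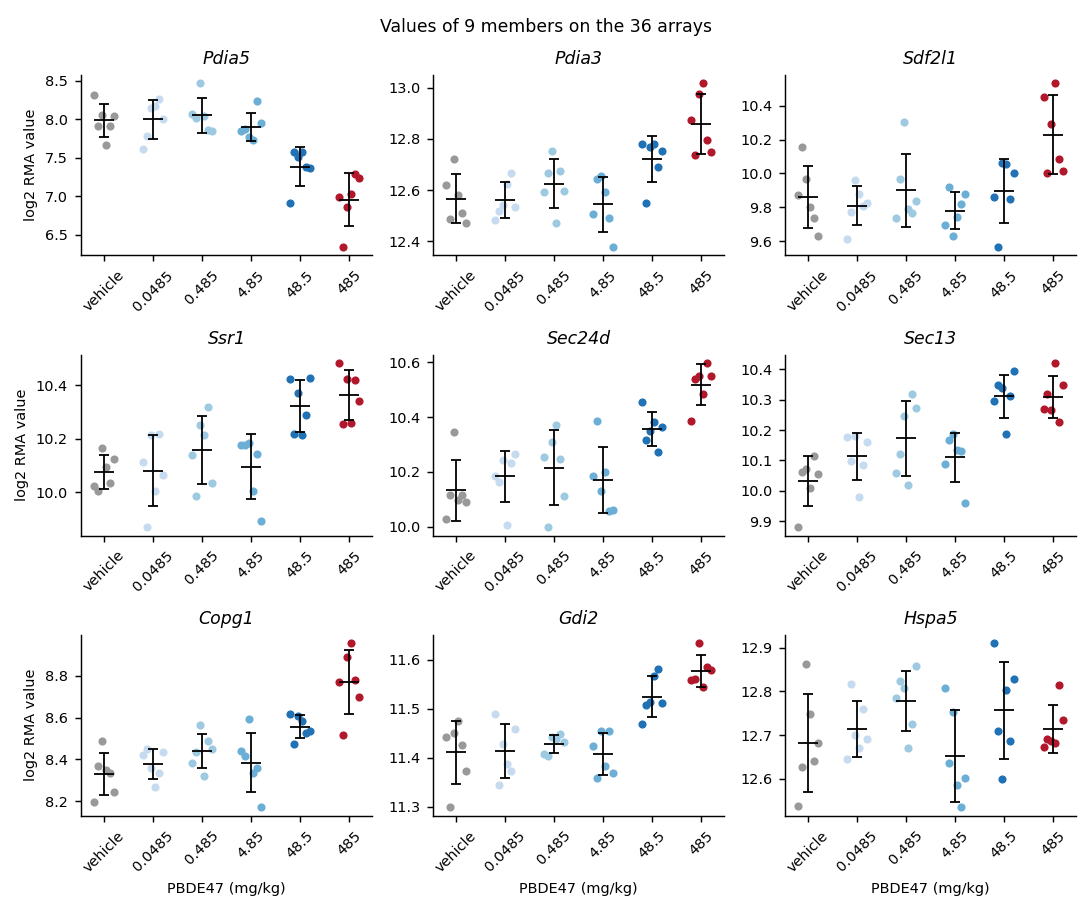
Log2 RMA value on each of the 36 arrays for 9 members, by group from vehicle to 485 mg/kg, with mean and SD bars (n = 6 per group; each panel has its own vertical range). Pdia5 steps down at 48.5 and 485 mg/kg, Sec13 and Ssr1 step up at 48.5 mg/kg and stay there at 485 mg/kg, and Hspa5 overlaps vehicle at every dose.

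None of the 3 ERAD and UPR members was called at 485 mg/kg. Xbp1, the transcription factor activated by IRE1-dependent splicing (probe set 1371249_at), ran from 11.87 to 12.88 with a median of 12.16 at 485 mg/kg, against 12.45 to 12.98 with a median of 12.71 in vehicle livers. The median at 485 mg/kg lay below the lowest vehicle liver, but the groups overlapped. The difference was -0.47 (adjusted p = 0.0552, interval -0.82 to -0.13). From the lowest dose up to 48.5 mg/kg the Xbp1 differences were -0.37, -0.30, -0.46 and -0.38, none called, and these comparisons share the vehicle livers. The array gives 1 value for Xbp1, and its splicing was not measured. Herpud1, a component of the HRD1 degradation complex, differed by -0.24 (adjusted p = 0.311) and Sel1l, the adaptor of the same complex, by 0.03 (adjusted p = 0.849).

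In the translocon group, 1 of 9 members was higher at 485 mg/kg and 1 lower, and the median change was 0.02. Among probe sets with a mean above the median, 13.7% were higher and 12.5% lower, so these counts lie near the general shares. The channel subunits Sec61a1, Sec61b and Sec61g differed by -0.07, -0.01 and 0.07 and were not called. Ssr1, the alpha subunit of the translocon-associated protein (TRAP) complex (probe set 1373090_at), ran from 10.26 to 10.48 with a median of 10.38 at 485 mg/kg, against 10.01 to 10.17 with a median of 10.06 in vehicle livers. Livers given 48.5 mg/kg ran from 10.21 to 10.43 with a median of 10.33. Both dose groups lay wholly above the vehicle group. Ssr1 rose by 0.29 at 485 mg/kg (SE 0.07, adjusted p = 0.00142) and by 0.25 at 48.5 mg/kg (SE 0.07, adjusted p = 0.0238), a call lost without any 1 of vehicle replicates 1, 2 and 5 and 48.5 mg/kg replicates 1, 3 and 6 (adjusted p up to 0.0697). Its second probe set was called at 485 mg/kg too (0.34).

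The other TRAP subunits Ssr2, Ssr3 and Ssr4 differed by 0.20, 0.02 and 0.06 and were not called. For Ssr2 the adjusted p was 0.0596 and the interval 0.05 to 0.36. Sec63, which with Sec62 helps proteins that enter the channel after their synthesis (probe set 1390115_at), ran from 9.45 to 9.69 with a median of 9.59 at 485 mg/kg, against 9.65 to 9.92 with a median of 9.72 in vehicle livers. The livers at 485 mg/kg lay low, and the groups overlapped. Sec63 fell by 0.18 (SE 0.06, adjusted p = 0.0497), close to the threshold, and its 3 other probe sets were not called (-0.09, 0.01 and -0.11). Sec62 differed by -0.06 and was not called.

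The COPII coat, which buds vesicles from the ER, had 3 of its 4 measured genes higher at 485 mg/kg and the same 3 higher at 48.5 mg/kg. The median change was 0.26 at 485 mg/kg and 0.25 at 48.5 mg/kg. Sec24d, an inner coat subunit that selects cargo (probe set 1373610_at), ran from 10.39 to 10.60 with a median of 10.54 at 485 mg/kg, against 10.03 to 10.35 with a median of 10.11 in vehicle livers. Livers given 48.5 mg/kg ran from 10.27 to 10.46 with a median of 10.36. The livers at 485 mg/kg all exceeded vehicle, while those at 48.5 mg/kg overlapped 1 vehicle liver, replicate 3. Sec24d rose by 0.38 at 485 mg/kg (SE 0.06, 1.31-fold, adjusted p = 1.65e-05) and by 0.22 at 48.5 mg/kg (SE 0.06, adjusted p = 0.0364). The call at 48.5 mg/kg was lost when 1 array was left out, except for vehicle replicate 3 and 48.5 mg/kg replicates 2 and 5 (adjusted p up to 0.1).

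Sec13, of the outer coat (probe set 1371437_at), ran from 10.23 to 10.42 with a median of 10.29 at 485 mg/kg, against 9.88 to 10.11 with a median of 10.06 in vehicle livers. The range at 48.5 mg/kg was 10.19 to 10.39, with a median of 10.32. Every liver of both doses lay above every vehicle liver, and the rise was of nearly the same size at both. It was 0.28 at 485 mg/kg (SE 0.05, adjusted p = 0.0003) and 0.28 at 48.5 mg/kg (SE 0.05, adjusted p = 0.00171). SEC13 protein also belongs to the nuclear pore, so its gene is not specific to vesicle budding.

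Sec23b, the partner of SEC24 in the inner coat (probe set 1388857_at), ran from 10.38 to 10.67 with a median of 10.46 at 485 mg/kg, against 10.09 to 10.47 with a median of 10.28 in vehicle livers. At 48.5 mg/kg it ran from 10.43 to 10.66 with a median of 10.55. The groups overlapped at the highest vehicle liver. Sec23b rose by 0.24 at 485 mg/kg (SE 0.07, adjusted p = 0.0141) and by 0.28 at 48.5 mg/kg (SE 0.07, adjusted p = 0.0169). Without vehicle replicate 1 both calls were lost (adjusted p up to 0.0603), as was that at 48.5 mg/kg without replicate 5 of that dose. Sec31a, the other outer coat subunit, differed by 0.13 and was not called (adjusted p = 0.366).

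Among the 8 COPI and traffic genes, 3 were higher at 485 mg/kg (Copg1, Copb2 and Gdi2) and 0 lower, with a median change of 0.14. Copg1, the gamma subunit of the COPI coat (probe set 1372464_at), ran from 8.52 to 8.96 with a median of 8.77 at 485 mg/kg, against 8.20 to 8.49 with a median of 8.34 in vehicle livers. At 48.5 mg/kg it ran from 8.47 to 8.62 with a median of 8.56. The livers at 485 mg/kg all exceeded vehicle, and those at 48.5 mg/kg overlapped the highest vehicle liver. Copg1 had the largest rise of any member, 0.44 at 485 mg/kg (SE 0.06, 1.35-fold, adjusted p = 3.14e-06), and rose by 0.23 at 48.5 mg/kg (SE 0.06, adjusted p = 0.04), where the call was lost when 1 array was left out, except for vehicle replicate 3 and 48.5 mg/kg replicate 2 (adjusted p up to 0.113). Its second probe set changed by 0.13 at 485 mg/kg and was not called (adjusted p = 0.135), so the 2 probe sets disagree in size.

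Gdi2, which extracts Rab GTPases from membranes (probe set 1367460_at), ran from 11.54 to 11.63 with a median of 11.57 at 485 mg/kg, against 11.30 to 11.48 with a median of 11.43 in vehicle livers. The groups did not overlap, and the rise was 0.17 (SE 0.04, 1.12-fold, adjusted p = 0.00185). Copb2, the beta-prime coat subunit (probe set 1367454_at), ran from 10.35 to 10.50 with a median of 10.39 at 485 mg/kg, against 10.13 to 10.39 with a median of 10.20 in vehicle livers. The groups overlapped at the highest vehicle liver, and the rise was 0.17 (SE 0.05, adjusted p = 0.0238). The remaining coat subunits Copa, Copb1, Cope and Copz1 differed by 0.10, 0.14, 0.14 and 0.08 and were not called, although Copb1 lay close to the threshold (adjusted p = 0.0502). Arf1, the GTPase that recruits the COPI coat, differed by 0.05 (adjusted p = 0.506).

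Set side by side, the chaperones had a median change of 0.16 at 485 mg/kg, the COPII genes 0.26, the COPI and traffic genes 0.14, the translocon genes 0.02 and the ERAD and UPR genes -0.24. On each array the median of a group's genes was taken relative to the vehicle means. For the chaperones it ran from 0.05 to 0.23 at 485 mg/kg, against -0.13 to 0.17 in vehicle livers, and the groups overlapped. For the COPII genes it ran from 0.21 to 0.43 at 485 mg/kg, against -0.16 to 0.21 in vehicle livers, with every liver at 485 mg/kg above vehicle but the closest pair nearly equal, and from 0.20 to 0.32 at 48.5 mg/kg, where the groups overlapped. The highest vehicle value in the chaperone, translocon, COPII and COPI groups came each time from replicate 3. For the COPI and traffic genes the array median ran from 0.01 to 0.19 at 485 mg/kg, against -0.07 to 0.09 in vehicle livers, with 5 of the 6 livers at 485 mg/kg above vehicle and replicate 6 within the vehicle range. For the translocon it ran from -0.05 to 0.10 at 485 mg/kg, against -0.06 to 0.09 in vehicle livers. The difference between the gene groups was not tested, since members are not replicates.

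**Figure D3:**
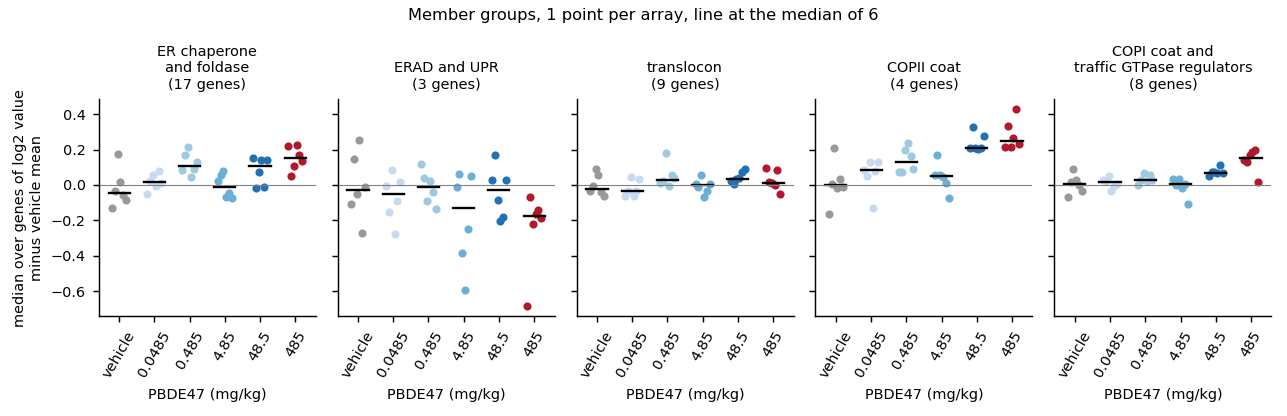
Median over the genes of each role of the log2 value minus the vehicle mean, 1 point per array, by group from vehicle to 485 mg/kg, with a line at the median of the 6 arrays. At 485 mg/kg all 6 COPII points and 5 of the 6 COPI points lie above the highest vehicle point, the chaperone and translocon points overlap vehicle, and at 48.5 mg/kg the COPII points overlap vehicle too.

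Motif and change were also set side by side. Of the 11 measured members with ERSE or ERSE-II, 1 was higher at 485 mg/kg (Canx) and 0 lower, with a median of 0.15. Of the 25 with a window and neither motif, 8 were higher and 2 lower, with a median of 0.10. Pdia3, Pdia6, Manf, Sec61a1 and Sec24d had no listed window and are in neither count, and all of them but Sec61a1 were higher. Of the 7 measured members with TGACGTG, 1 was higher (Copb2) and 0 lower. Over all probe sets 7.81% were higher and 7.22% lower, and among those with a mean above the median 13.7% and 12.5%. With so few genes the counts are unstable. The Canx call was lost under 4 of 10 other settings. Hsp90b1 and Hyou1, both upward, and Xbp1, downward, lay near the threshold (limma adjusted p = 0.0562, 0.0611 and 0.0552). Whether the motif counts differ from each other or from these shares was not tested.

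At 48.5 mg/kg, 5 of the 41 members were higher than in vehicle (Ssr1, Sec23b, Sec24d, Sec13 and Copg1) and 1 was lower (Pdia5). Over all probe sets 2.57% were called higher and 0.821% lower, and among those with a mean above the median 4.88% and 1.33%. The median change of the members was 0.08, against -0.01 for all probe sets, and 35 of 41 lay above 0. By the chosen probe sets, no chaperone was called higher at this dose in limma, and the chaperone median was 0.08. The second, dim probe set of Hyou1 (mean 5.26) was called higher in limma (0.30, adjusted p = 0.0302). Of the 17, 3 had an unadjusted p below 0.05, against 15.5% of all probe sets and 23.3% of those with a mean above the median. These were Pdia5, which fell, and Pdia3 and Manf, which were not called. Full separation from vehicle was seen upward in Ssr1 and Sec13, against 1.52% of all probe sets, and downward in Pdia5, against 0.677%. The count of 5 dropped to 3 or fewer when any of 10 single arrays was left out, and to 1 without vehicle replicate 1. The comparisons of 48.5 and of 485 mg/kg with vehicle share the vehicle livers.

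Between the highest doses, 2 members were higher at 485 than at 48.5 mg/kg and 0 lower, where 2.55% of all probe sets were higher and 2.31% lower. Sdf2l1 was higher by 0.33 (adjusted p = 0.0462) and Copg1 by 0.21 (adjusted p = 0.0471). Both adjusted p values lay close to the threshold. For the COPII genes the median difference between these doses was -0.01, and for the chaperones 0.08. With 48.5 mg/kg replicate 2 left out, 0 members were higher.

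The lower doses gave no call among the members. At 4.85 mg/kg limma called 0 of 41 members, where 0.0193% of all probe sets were called in either direction, and 2 members had an unadjusted p below 0.05, against 6.46% of all probe sets and 8.72% of those with a mean above the median. At 0.485 and 0.0485 mg/kg it called 0 members and 0.00% of all probe sets. An unadjusted p below 0.05 was seen at 0.485 mg/kg in 9 members, against 4.45% of all probe sets and 4.53% of the brighter ones. At 0.0485 mg/kg it was seen in 1 member, against 4.89% and 5.54%. The ordinary linear model test without moderation also called 0 members at each of these doses. At 0.485 mg/kg 39 of 41 members lay above 0, all 17 chaperones among them, with a chaperone median of 0.12 and Creld2 as the highest at 0.24. The median over all probe sets was -0.0001. The members share the vehicle livers and many vary together between arrays, so these are not 41 separate observations. At 4.85 mg/kg the chaperone median was -0.01, so the values did not climb steadily with dose. The moderated F test over all 5 doses passed for 11 of 41 members, against 13.0% of all probe sets, and the 11 were Pdia3, Pdia4, Pdia5, Sdf2l1, Manf, Ssr1, Sec23b, Sec24d, Sec13, Copg1 and Gdi2. The share among the brighter probe sets, where the members lie, was not calculated for this test. Nor was it for the full separations or the step between the highest doses.

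Other genes of the pathway were read from 5 further lists, chosen with earlier results of these data known. For each list, the shares over all probe sets at 485 mg/kg were 7.81% higher and 7.22% lower. Among probe sets with a mean above the median they were 13.7% and 12.5%. Whether any list differs from these shares was not tested. Among 42 measured genes of other coat proteins, cargo receptors and ER-to-Golgi traffic, 8 were higher at 485 mg/kg and 4 lower, with a median of 0.06. Sar1b, the GTPase that starts COPII coat assembly, averaged 12.03 ± 0.13 at 485 mg/kg and 11.32 ± 0.08 in vehicle livers (log2, SD, n = 6 each). It rose by 0.71 (SE 0.06, adjusted p = 8.23e-12), and by 0.38 at 48.5 mg/kg (adjusted p = 4.56e-05). Copz2, the second zeta subunit of COPI, rose by 0.38 (adjusted p = 3.79e-05), while the GTPase Arf3 fell by 0.34 (adjusted p = 2.37e-05).

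Of 26 other ER folding enzymes, 7 were higher at 485 mg/kg and 1 lower, with a median of 0.05. Uggt1, which reglucosylates misfolded glycoproteins so that they return to calnexin, averaged 7.14 ± 0.18 at 485 mg/kg and 6.48 ± 0.13 in vehicle livers (log2, SD, n = 6 each) and rose by 0.66 (SE 0.08, adjusted p = 2.9e-08). Fkbp11, a prolyl isomerase of secretory cells, rose by 0.50 (adjusted p = 3.17e-05), and Sil1, a nucleotide exchange factor of BiP, by 0.34 (adjusted p = 0.00109). The gene that fell was Prdx4, an ER peroxiredoxin (-0.18, adjusted p = 0.00294).

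Of 27 genes of signal recognition, signal peptidase and oligosaccharyltransferase, 7 were higher and 0 lower, with a median of 0.14. The oligosaccharyltransferase subunits Tusc3, Stt3a and Rpn1 rose by 0.41, 0.26 and 0.21. Of 18 ERAD genes, 4 were higher and 0 lower, with a median of 0.04, and the 3 with the largest change were Nploc4 (0.37), Ubxn4 (0.33) and Ufd1 (0.21). Of 16 UPR sensors and effectors, 1 was higher (Wfs1, 0.21, adjusted p = 0.0114) and 0 lower, with a median of 0.05. The 16 changes ran widely, from -0.79 to 0.53. In limma 3 of the 16 had an unadjusted p below 0.05, against 8026 of all 31042 probe sets. The ATF4 branch targets Ddit3 and Trib3 differed by 0.06 and 0.06 and were not called, with 95% intervals from -0.39 to 0.52 and from -0.60 to 0.73. The wide intervals leave changes of that size unresolved.

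**Figure D4:**
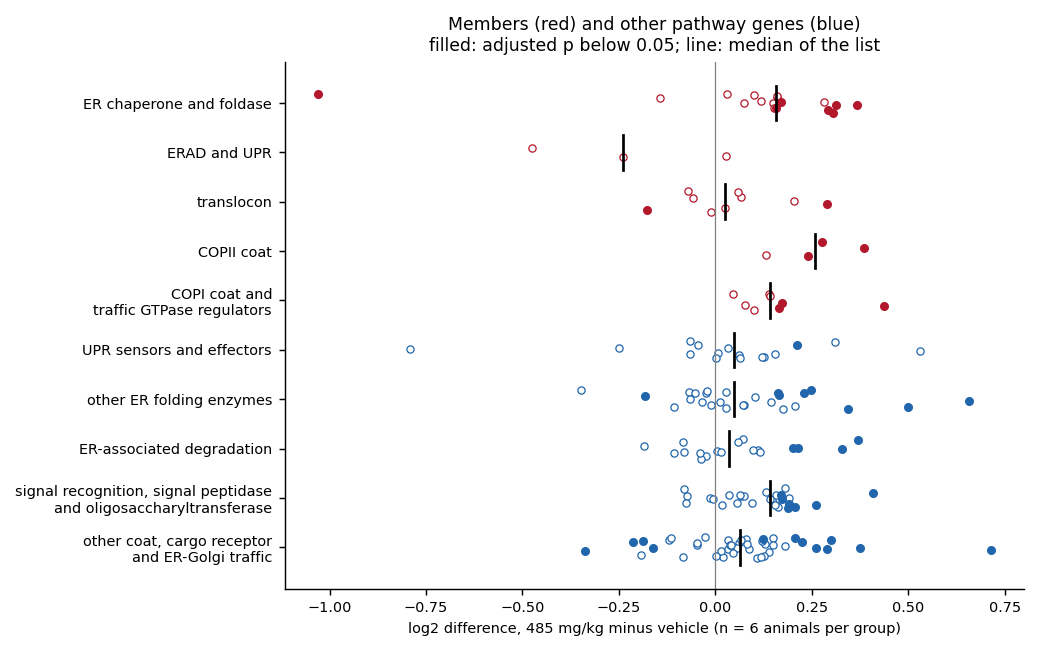
Log2 difference between 485 mg/kg and vehicle for each measured gene of the 5 member groups (red) and of 5 further pathway lists (blue), with filled points for an adjusted p below 0.05 and a line at each list's median. Sar1b (0.71) and Uggt1 (0.66) lie farthest to the right, Pdia5 (-1.03) farthest to the left, and the UPR list has 1 filled point.

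Markers of cell types were read beside these changes, where 7.81% of all probe sets were called higher at 485 mg/kg and 7.22% lower. Of 8 hepatocyte markers, 6 were lower at 485 mg/kg (Apoa1, Fgb, Cps1, Serpina1, Ttr and Apoh, from -0.31 to -0.11), and their summed level, on the log2 scale, ran from 17.15 to 17.19 at 485 mg/kg, against 17.30 to 17.35 in vehicle livers. Of 4 plasma cell markers, 2 were lower (Jchain, -0.76, and Sdc1, -0.23), with summed levels from 8.76 to 9.05 at 485 mg/kg, against 9.16 to 9.49 in vehicle livers. Of these 4, 2 had a mean below the lowest array median. Of 8 Kupffer cell and macrophage markers, 4 were lower (Clec4f, Cd163, Csf1r and C1qb, from -0.62 to -0.40), with summed levels from 11.62 to 12.28 at 485 mg/kg, against 12.35 to 12.74 in vehicle livers. These 3 sums did not overlap between the groups, and all lay lower at 485 mg/kg. Over all probe sets, 3.03% separated fully downward and 4.30% upward.

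Endothelial Kdr and Pecam1 were lower (-0.43 and -0.27, of 6 markers), with summed levels from 11.489 to 11.635 at 485 mg/kg, against 11.644 to 11.84 in vehicle livers. The endothelial sum thus did not overlap either, by a narrow gap. The T and NK cell markers Cd8a and Cd3d were lower (-0.53 and -0.22, of 9), with summed levels from 8.22 to 8.45 at 485 mg/kg, against 8.31 to 8.68 in vehicle livers. Of these 9, 7 had a mean below the lowest array median, so most were dim. The cholangiocyte marker Epcam was higher (0.60, of 6), with summed levels from 9.85 to 10.13 at 485 mg/kg, against 9.35 to 9.69 in vehicle livers, without overlap. Only 1 of the 6, Epcam itself, lay above 0, and their median change was -0.08, so the higher sum rests on Epcam. Of these 6, 3 had a mean below the lowest array median. In limma 0 of 9 stellate cell and fibroblast markers were called, with 1 at an unadjusted p below 0.05, and their summed levels ran from 11.41 to 12.27 at 485 mg/kg, against 11.54 to 12.46 in vehicle livers. In bulk liver, fewer cells of a type and less RNA per cell cannot be told apart, and the part of these shifts in the members' changes was not tested. The gap between the 3' and the 5' probe sets of control genes, a sign of RNA quality, overlapped between 485 mg/kg and vehicle for all 3 control genes.

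Among animals of the same dose the members varied little, with a median within-group SD of 0.11, against 0.14 for all probe sets. Xbp1 (0.31), Herpud1 (0.26) and Pdia5 (0.25) varied most. The deviations of each array from its group mean were correlated between members over the 36 arrays, as a description, since all genes of an array share its RNA and its normalization. The highest values were 0.75 for Hspa5 with Hsp90b1, 0.73 for Pdia3 with Pdia6 and 0.70 for Hspa5 with Dnajb11. The median over 136 pairs of chaperones was 0.30, over 36 translocon pairs 0.29, over 6 COPII pairs 0.24 and over 28 COPI and traffic pairs 0.12. Hspa5 and Copg1 correlated at 0.41, and Hspa5 and Pdia5 at -0.20.

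**Figure D5:**
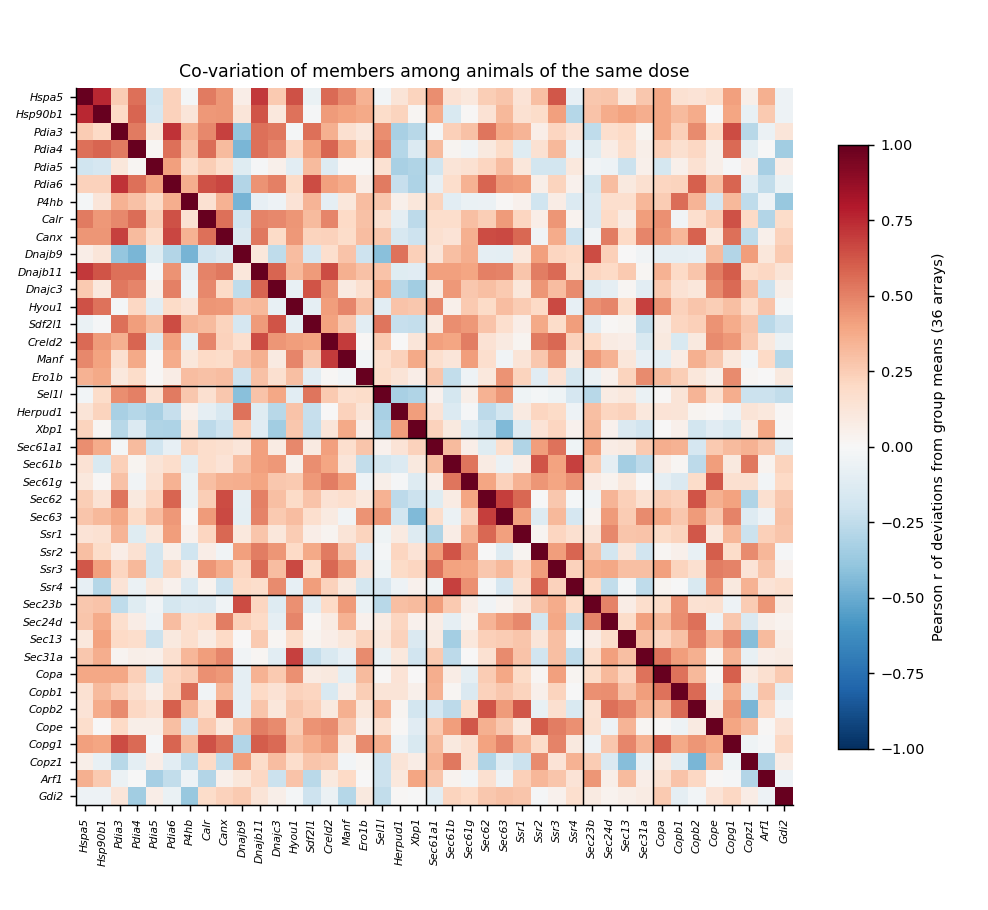
Pearson correlation, over 36 arrays, of the deviations of the 41 members from their group means, ordered by role with lines between the roles; red is positive and blue negative. Hspa5, Hsp90b1 and Dnajb11 form a red patch (0.75 and 0.70 with Hspa5), and Pdia5, Dnajb9, Herpud1 and Xbp1 show pale or blue cells with most chaperones.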

How the data were processed

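The deposited log2 values, 1 for every probe set on every array, come from RMA and the R package affy, per the submitters' processing notes. Tool versions and settings are not given in the sources used here. RMA corrects background, brings all arrays to 1 distribution and summarizes probes, so a value is relative to that distribution. Of 31099 probe sets, 57 controls were left out and 31042 tested, bright or dim. The platform annotation gave 20826 a single gene, 436 several and 9780 none, and 20758 matched RefSeq (GRCr8) by Entrez identifier, with 0 symbols changed.

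Groups came from the labels, and nothing in them says how animals were allocated or processed in batches. A one-way model was fitted to all 36 arrays in limma 3.58.1 (R 4.3.3; 30 residual and 5.26 prior degrees of freedom), two-sided, with Benjamini-Hochberg adjustment over 31042 probe sets per comparison. The study names R/maanova at a false discovery rate under 5%, which was not used here. An ordinary test stood in for it. The procedure was tested on simulated data.

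The members and lists were chosen with earlier results of these data known. All members are named. Array values are given for members called at 48.5 mg/kg and up to 5 called per role at 485 mg/kg (those of Hspa5 and Xbp1 were added after their values were seen). Named by their log2 change are up to 3 called genes with the largest change per pathway list, and every called marker. Prdx4, Ddit3 and Trib3 were added after their values were seen. Group means are given for Sar1b and Uggt1, and summed levels for each marker list. Motifs were searched on both strands of RefSeq windows from 250 bases before to 50 after the start site. TGACGTG was added after the first matches were seen. Protein features were not analysed here. Alternatives were the replicate block, quantile normalization, median centring, the probe sets brighter than the median, the ordinary test, trend and robust moderation, array weights, only the arrays compared, a minimum of 1.5-fold, averaging of all probe sets of a gene, and leaving out each array.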

Additional observations from a re-analysis of the deposited data

Results flagged for a closer look

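Among 114 groups of 6 arrays (13 members and 6 summaries in 6 groups each), 10 held an array whose gap to its nearest neighbour was wide against the group's range (Dixon's test at 95%). For separate groups chance alone gives about 1 in 20. These 114 share the same arrays, and the summaries include the members, so the flags are not separate and their number cannot be set against that rate. Replicate 3 at 0.485 mg/kg was high in Pdia5 (8.47, group median 8.02), in the median difference from vehicle of all members (0.18, group median 0.06) and in that of the translocon genes (0.18, group median 0.03). Replicate 4 at 0.0485 mg/kg was low in Sec23b (10.01, group median 10.39) and in the COPII median (-0.13, group median 0.08). Pdia5 was low in replicate 1 at 48.5 mg/kg (6.91, group median 7.45). Sec24d was high in vehicle replicate 3 (10.35, group median 10.11). The ERAD and UPR median was low in replicate 1 at 485 mg/kg (-0.69, group median -0.17), and the COPI and traffic median was low in replicate 6 at 485 mg/kg (0.014, group median 0.15) and in replicate 6 at 4.85 mg/kg (-0.11, group median 0.00), the array with the lowest mean correlation to its own group (0.991).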

How the results depend on the processing

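No called change of a member turned its direction under any of the alternatives. The 13 higher calls at 485 mg/kg became 8 after quantile normalization and 0 with a minimum of 1.5-fold, and the 2 lower calls became 1 after median centring, 1 with all probe sets of a gene averaged and 0 with a minimum of 1.5-fold. Leaving out 1 array gave 10 to 17 higher and 1 to 2 lower calls at 485 mg/kg, with 1 lower without vehicle replicates 1, 3 or 4 or 485 mg/kg replicate 1. At 48.5 mg/kg the 5 higher calls became 2 after quantile normalization, 2 with only the arrays compared and 0 with a minimum of 1.5-fold, where the 1 lower call also became 0. Leaving out 1 array gave 1 to 5 higher calls there, with 1 without vehicle replicate 1, 5 without vehicle replicate 3 or 48.5 mg/kg replicate 2, and 2 or 3 otherwise. Quantile normalization moved the medians at 48.5 mg/kg to 0.024 for the translocon and 0.047 for the COPI and traffic genes. Between 485 and 48.5 mg/kg the 2 higher calls became 1 after quantile normalization, in the ordinary test, with array weights and with all probe sets of a gene averaged, and 0 after median centring, with only the arrays compared and with a minimum of 1.5-fold, and leaving out 1 array gave 0 to 3. It was 3 without 485 mg/kg replicate 2, 0 without 485 mg/kg replicates 1, 3 or 4 or 48.5 mg/kg replicates 2 or 5, and 1 without 48.5 mg/kg replicates 1, 3 or 6. The 0 lower calls there became 1 among the brighter probe sets and with array weights, and leaving out 1 array gave 0 to 1, with 1 without 485 mg/kg replicates 5 or 6 or 48.5 mg/kg replicate 1. The causes were not tested.

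Canx, Sec63, Pdia6 and Copb2 lost their calls at 485 mg/kg most often, under 4, 5, 3 and 3 of the 10 other settings and without 5, 7, 4 and 3 of 12 single arrays. At 48.5 mg/kg the calls of Sec24d, Copg1, Ssr1 and Sec23b were lost under 4, 3, 2 and 2 of 10 settings and without 9, 10, 6 and 2 of 12 single arrays. Calls were gained at 485 mg/kg by Copb1, Hsp90b1, Ssr2, Xbp1 and Hyou1 under 9, 8, 6, 6 and 5 of these 22 settings (for Xbp1 with an adjusted p from 0.0114 to 0.139 and for Hsp90b1 from 0.00692 to 0.212, apart from the 1.5-fold minimum), and by Cope, Dnajc3, Calr and Sec62 under 3 or fewer. The translocon median at 485 mg/kg crossed 0 without vehicle replicate 1 (-0.0036 to 0.04 over single arrays left out). No intensity or detection call was used, so signal over background is unknown.

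Groups share replicate numbers in the labels, and nothing in them says whether the numbers pair the animals. At 485 mg/kg, same-numbered deviations correlated with vehicle from -0.12 to 0.14, with 0 of 6 best matched to their own number. At 48.5 mg/kg the range was -0.06 to 0.23, with 2 of 6. Replicate 3 was highest in the all-member median in vehicle and at 0.0485, 0.485 and 4.85 mg/kg, but not at 48.5 or 485 mg/kg. Whether equal numbers mark a pair or a shared processing step cannot be told from these values. With the replicate number as a block, 14 members were higher and 2 lower at 485 mg/kg, and 4 and 1 at 48.5 mg/kg. At 485 mg/kg Sec63 was lost (adjusted p = 0.0529) and Xbp1 (0.0292) and Copb1 (0.0322) gained, and at 48.5 mg/kg Sec24d was lost (0.0504).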
